A study of Mus musculus with 64 samples.

Results

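The cells described here are colon immune cells that carried CD4 and CD90.2 without CD3, found by counting surface proteins on single cells during T cell transfer colitis. There were 4304 such cells among 130442 kept cells from 9 libraries (3.30%). They were chosen by measured values, the levels of 6 of the 11 proteins counted. Each level is a centred log ratio: 1 was added to the count, the natural log was taken, and the mean of these logs over the cell's 11 proteins was subtracted. A cell was included with CD90.2 above 2.035, CD4 above 0.652, CD3 at or below -0.155, CD11b at or below 0.712, CD11c at or below 0.497 and CD64 at or below 0.105. They are called CD3- CD4+ cells below, and their levels of those 6 proteins are given as a description with no test.

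All 9 libraries came from BALB/c SCID mice, which lack their own T and B lymphocytes, labelled with transfer of CD45RBhi T cells, a mostly naive fraction that causes colitis in such hosts. The labels give the transfer for week 0 too, and only 1 cell above the CD3 threshold was found among 524 CD4+ cells passing the other limits there. From weeks 0 to 7 there was 1 untreated library per week, and 1 further week 7 library came from mice treated with anti-IL-12p40 from day 10, which binds the p40 chain that IL-12 and IL-23 have in common. Each library pooled the colons of 3 animals, and the sorted cells were EpCAM- and CD45+ lamina propria cells. Weeks therefore differ by 1 pool each, and treated against untreated has no replicate. P-values measure only the spread between these libraries, in which week and pool cannot be told apart.

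In the mouse intestine, CD4 without CD3 is best known from lymphoid tissue inducer cells, a form of group 3 innate lymphoid cell. These cells also carry CD90 (Thy1) and CD127, the interleukin-7 receptor alpha chain on which innate lymphoid cells depend. CD3 is the signalling complex of the T cell receptor, and activated T cells can lower it at the surface. Other innate lymphoid cells lack CD4, and those of group 2 often carry KLRG1, an inhibitory lectin-like receptor that is also found on effector and regulatory T cells. CD103, the alpha E integrin, holds lymphocytes at the epithelium. Ly-6C and Ly-6G are best known from monocytes and neutrophils, Ly-6C also from T cells. The nearest classes served for comparison. CD3+ CD4+ cells passed every limit except CD3 (53794 cells), and CD3- CD4- cells passed every limit except CD4 (17857 cells).

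Barcodes numbered 11534 to 21229 per library, with 12914066 to 28723452 antibody counts in all, and the median kept cell had 576.5 counts at week 1 to 1566 in the treated library. The 36 pairs of libraries shared 30 to 110 barcodes, and 130 of the CD3- CD4+ cells had a barcode that also occurred in another library. The week 6 library stood apart, with 1695 of the 4304 cells, and the remaining 8 libraries held 2609 (2.19% of their kept cells). No doublet caller was run. At week 0 the CD3- CD4+ cells had a median of 2026 antibody counts, 1.86 times that of all kept cells, and 23.1% of them lay above the library's 90th percentile by total. At week 1 the ratio was 1.60, and at weeks 2 to 7 it was 0.781 to 1.02. The part of droplets holding more than 1 cell in these results was not tested.

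CD3- CD4+ cells were present in every library, from 0.994% of kept cells at week 4 to 14.8% at week 6. There were 523 at week 0, or 3.13% (exact binomial 95% interval 2.87 to 3.40, counting error only). Week 1 had 425 (3.37%), week 2 had 353 (1.68%), week 3 had 162 (1.29%) and week 4 had 178 (0.994%). Week 5 had 465 (3.35%), week 6 had 1695 (14.8%, 14.2 to 15.5) and untreated week 7 had 213 (1.79%). Week 6 stood highest under each alternative except the CD3 threshold lowered by 0.5 or 1, but the shares themselves moved with the settings. With that threshold lowered by 0.5, week 6 had 2.56%, below weeks 0 and 1, and with thresholds fitted in each library it had 6.25%. With every cell thinned to 150 counts and the thresholds kept, weeks 0 to 7 had 3.35%, 3.80%, 5.43%, 4.73%, 3.17%, 8.46%, 28.0% and 9.90%.

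**Figure D1:**
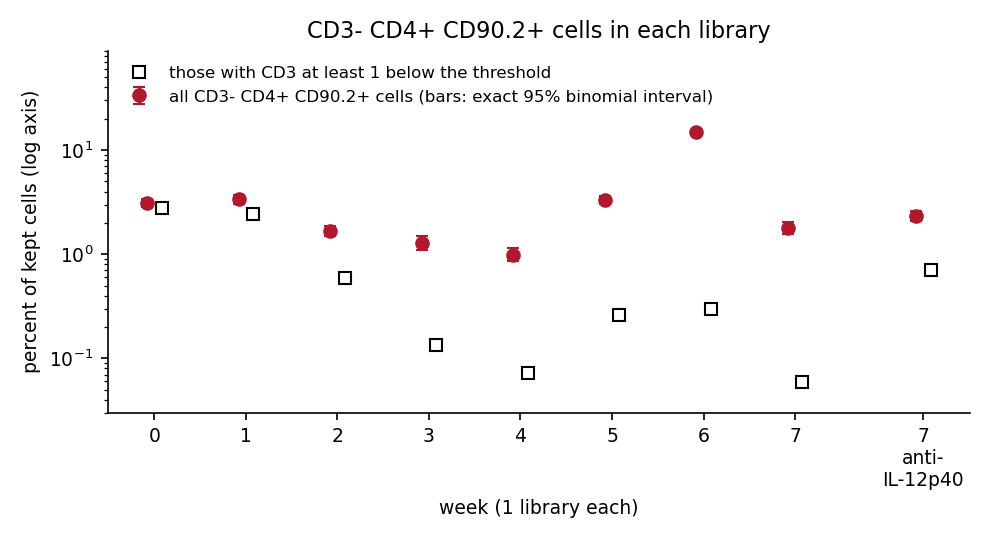
Percent of kept cells that were CD3- CD4+ CD90.2+ (red circles, bars are exact 95% binomial intervals) and the subset with CD3 at least 1 natural log unit below the threshold (open squares), by library, on a log axis. The circles stay between 0.994% and 3.37% in the untreated libraries other than week 6 (14.8%), while the squares lie at 2.77% and 2.43% at weeks 0 and 1 and at 0.0588% to 0.596% at untreated weeks 2 to 7.

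The place of these cells among CD4+ cells was different at either end of the time course. At week 0, 99.8% of the CD4+ cells that passed the other limits were CD3-, and at week 1 it was 46.9%. For weeks 2 to 7 the share was 4.93%, 2.46%, 2.21%, 5.44%, 21.5% and 2.08%. CD3+ CD4+ neighbours numbered 1 at week 0, 482 at week 1 and 6200 to 10040 from week 2 on. Among CD3- cells of the gate, CD4 was carried by 7.49%, 8.04%, 10.6% and 14.1% in weeks 0 to 3 and by 47.0%, 64.0%, 91.4% and 68.3% in weeks 4 to 7. Over those weeks the CD3- CD4- cells numbered 99 to 261, against 6464 at week 0, so the CD4+ share of CD3- cells was high where CD3- CD4- cells were few. Of all CD4+ cells, myeloid ones included, the CD3- CD4+ cells were 26.7% of 1959 at week 0 and 1.94% of 10969 at week 7.

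CD3 itself separated most of these cells into a class of their own at the start of the time course only. At weeks 0 and 1 the cells formed a peak of CD3 well below the threshold, and at week 1 a second peak of CD3+ cells stood above it. Their median CD3 was 2 counts at week 0 and 1 count at week 1, the same as in CD3- CD4- cells of those libraries (2 and 1). At week 2 it was 3 counts. At weeks 3 to 7 it was 18.5, 13.5, 13, 17 and 14 counts, against 7, 3, 4, 5 and 4 counts in CD3- CD4- cells. Macrophage-type CD64+ cells of those 5 libraries had 21, 9, 12, 11 and 14 CD3 counts. In weeks 3 to 7 no separate peak was visible, and nearly all of the cells were the lower edge of 1 distribution. At week 4 a few cells lay apart. There, 8 cells were at -1.5 to -1.25 from the threshold, 1 at -1 to -0.75 and 17 at -0.75 to -0.5. Since CD3 is part of the choice, low counts do not support the label, but at weeks 3 to 7 "CD3-" means only below the threshold.

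The distance from the threshold shows the same in numbers. Just inside it, within 0.25 natural log units, lay 1 of 523 cells at week 0 (0.191%) and 1.41% at week 1. For weeks 2 to 7 the share was 30.6%, 51.9%, 68.0%, 52.7%, 53.7% and 63.4%. Just outside, within the same distance, lay 0 cells at week 0 and 9 at week 1, but 212 at week 2, 219 at week 3 and 1462 at week 6. Cells at least 1 unit below the threshold are called far cells here. Weeks 0 to 7 held 463, 306, 125, 17, 13, 36, 34 and 7 of them. As a share of kept cells, far cells were 2.77%, 2.43%, 0.596%, 0.135%, 0.0726%, 0.259%, 0.298% and 0.0588% in that order. At week 6, which had the most CD3- CD4+ cells, 2.01% of them were far cells. In that library the CD3 level of the CD4+ cells as a whole was low, with a median of 31 counts against 37 to 71 at weeks 2 to 5 and 7, although the median kept cell there had 1508 counts in total. The part of that level in the week 6 share was not tested.

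**Figure D2:**
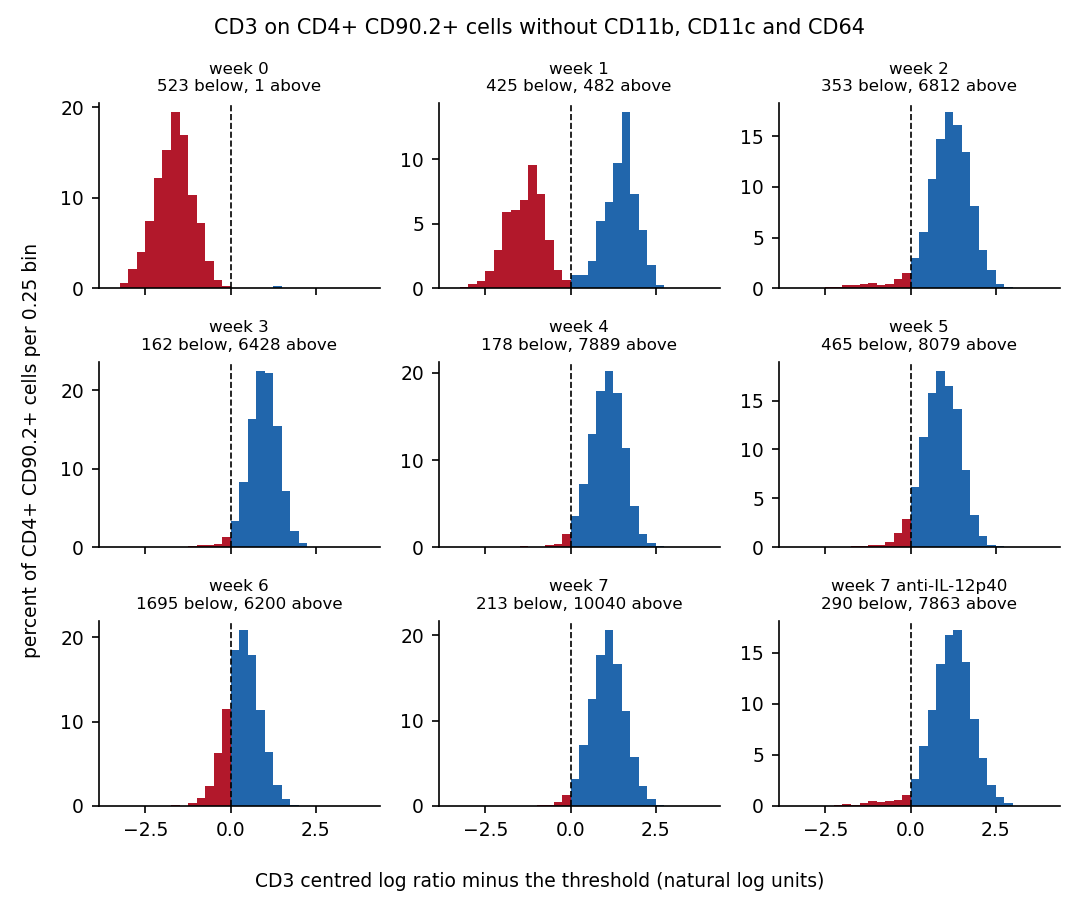
Distribution of CD3 on CD4+ CD90.2+ cells that passed the CD11b, CD11c and CD64 limits, 1 panel per library; the x axis is the CD3 centred log ratio minus the threshold in natural log units, the y axis the percent of those cells per bin, and red bars are below the threshold. Week 0 has 1 peak below it (523 below, 1 above), week 1 has 2 peaks (425 below, 482 above), and untreated weeks 3 to 7 have 1 main peak above it whose lower edge is red. Week 2 and the treated library have a small low group beside such a peak.

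CD4 and CD90.2 were plainly present on the CD3- CD4+ cells in every library. Median CD4 for weeks 0 to 7 was 293, 159, 83, 183.5, 130, 223, 215 and 256 counts. The CD3- CD4- cells of the same libraries had 1 to 9. Few cells sat just inside the CD4 threshold: 0.956% at week 0, 8.22% at week 2, which was the highest, and 0.939% at week 7 lay within 0.25 of it. Median CD90.2 for weeks 0 to 7 was 1520, 609, 381, 857, 347, 344, 1010 and 570 counts. At weeks 0 and 1 that was above the 898 and 406.5 counts of CD3- CD4- cells, which also had fewer counts in total (medians of 1111 and 530.5). At week 5 the CD90.2 threshold ran through the population, with 116 cells within 0.25 on either side.

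Of the 5 proteins that the choice of cells did not use, CD127, KLRG1 and CD103 described them best. Positive means above a cut-off set once for all libraries, where a cell was equally likely to belong to either of 2 fitted Gaussian components. For CD127 the components lay close together (Ashman's D, their distance in units of their spread, 1.56), so its shares are rough. At weeks 0 and 1 the cells were nearly uniform. CD127+ KLRG1- CD103- cells made up 86.2% and 84.7% of them. From week 2 on that combination made up 40.2%, 44.4%, 41.0%, 31.2%, 38.7% and 35.2%, so the cells of later weeks were mixed. In CD3- CD4- cells it made up 47.9% and 39.6% at weeks 0 and 1 and 30.3% to 47.5% at weeks 2 to 7. In CD3+ CD4+ cells it made up 46.3% at week 1 and 23.9% to 46.3% at weeks 2 to 7. The later shares were thus in the range of the neighbouring classes.

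CD127 was highest on the week 0 cells. It was positive on 96.6%, 95.3%, 56.9%, 68.5%, 80.3%, 71.2%, 55.5% and 88.3% of CD3- CD4+ cells in weeks 0 to 7, with median counts of 22, 11, 4, 16, 13, 11, 11 and 16. Weeks 2 and 6 had the lowest shares, and week 2 the lowest count. The CD3- CD4- cells were CD127+ about as often at weeks 0 and 1 (95.6% and 94.1%), and in 79.4%, 85.1%, 72.6%, 76.2%, 62.3% and 79.8% of cases in weeks 2 to 7. In CD3+ CD4+ cells the share was 53.1%, 29.5%, 39.1%, 54.4%, 57.0%, 43.9% and 70.5% in weeks 1 to 7. That was below the share of the CD3- CD4+ cells each time, but low CD3 itself raises this share. With CD3 and CD4 left out of the centring, the gap in median CD127 was 0.78 at week 1. At weeks 5 to 7 it was -0.01, 0.03 and 0.04. Centred on the 9 proteins other than CD3 and CD4, so that those 2 do not shift the others, median CD127 was 0.50 at week 0 and between -0.64 and 0.39 in the 7 later libraries. Week 0 lay above each of them, but 1 library against 7 cannot give an exact two-sided permutation p below 0.25. No trend over weeks passed the test for CD127 (Spearman's rho -0.43, exact permutation p = 0.299, adjusted p = 0.374 over 5 proteins; Pearson r -0.57). With the CD3 threshold lowered by 0.5, which kept 6 libraries with at least 50 cells (weeks 0 to 3, 5 and 6), the order was strictly downward (rho -1, exact adjusted p = 0.0139).

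KLRG1 was carried by few of the cells, except at weeks 2 and 3. It was positive on 10.7%, 10.4%, 32.0%, 27.8%, 7.30%, 4.95%, 8.32% and 9.86% of them in weeks 0 to 7. The CD3+ CD4+ cells had almost the same course, at 9.34%, 33.7%, 30.1%, 10.2%, 7.59%, 8.94% and 12.2% for weeks 1 to 7. The CD3- CD4- cells carried KLRG1 far more often: 48.2%, 56.6%, 55.3%, 59.2%, 51.7%, 37.2%, 35.2% and 28.3% for weeks 0 to 7. In each of the 8 untreated libraries the CD3- CD4+ share was below the CD3- CD4- share. High CD4 itself lowers the share, but with CD3 and CD4 left out of the centring median KLRG1 was lower in each too.

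CD103 was nearly absent at first and present on about as many cells as not by weeks 5 and 7. The positive share over weeks 0 to 7 was 2.29%, 2.35%, 8.50%, 19.8%, 43.8%, 55.1%, 31.0% and 54.5%. Median counts were 3, 1, 1, 10, 13.5, 32, 12 and 26 for weeks 0 to 7. In CD3+ CD4+ cells the positive share was 3.73% at week 1 and at most 24.4% later, at week 7. As for CD127, low CD3 itself raises the share of the CD3- CD4+ cells. In CD3- CD4- cells it ranged from 13.2% at week 6 to 32.3% at week 4.

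**Figure D3:**
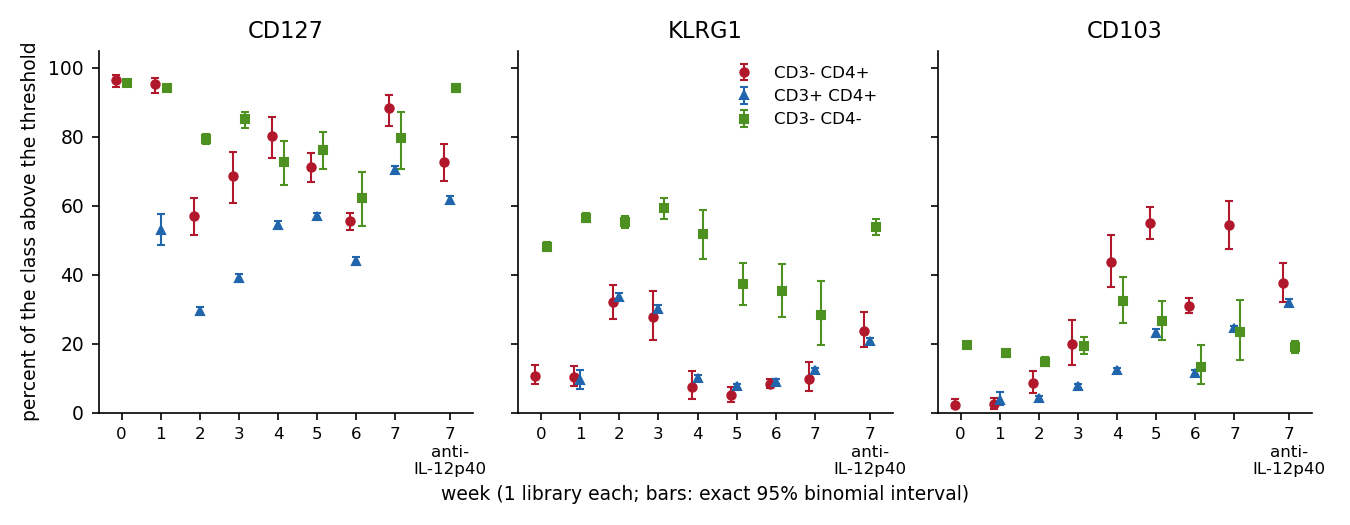
Percent of cells positive for CD127, KLRG1 and CD103 by library in CD3- CD4+ cells (red circles), CD3+ CD4+ cells (blue triangles) and CD3- CD4- cells (green squares); bars are exact 95% binomial intervals for counting error. CD103 on the red cells goes from 2.29% at week 0 to 55.1% at week 5, and KLRG1 on them lies below that of the green cells in each library.

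The trend of CD103 over weeks was upward but missed the threshold after adjustment. Over the 8 untreated libraries, Spearman's rho of its median level with week was 0.81 (exact permutation p = 0.0218, adjusted p = 0.0919 over 5 proteins). Pearson's r was 0.83 (exact permutation p = 0.0135, adjusted p = 0.0499). Without weeks 0 and 7, the 2 weeks farthest from the middle, rho was 0.77 (exact permutation p = 0.103) and r was 0.74. Scored as the share of positive cells, rho was 0.88 and the trend passed (exact adjusted p = 0.0362). CD103 also had positive rank correlations with week in CD3- CD4- cells (0.76) and, over weeks 1 to 7, in CD3+ CD4+ cells (0.64). High CD103 lowers a cell's CD3 ratio through the subtracted mean, so the CD103 trend is not independent of the choice of cells. The part of this in the trend was not tested. Ly-6G had a rho of 0.76 (exact permutation p = 0.0368, adjusted p = 0.0919) and r of 0.80, with 0.43 without weeks 0 and 7. Its level was low throughout, with medians of 1 to 15 counts, and at most 1.12% of the cells were positive. In CD3- CD4- cells its rho was 0.81. KLRG1 (rho -0.45, exact adjusted p = 0.374) and Ly-6C (rho -0.17, exact adjusted p = 0.703) passed no test of trend either, so 0 of 5 proteins passed. At an unadjusted exact permutation p under 0.05 there were 2 of 5, CD103 and Ly-6G.

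Against the CD3- CD4- cells of the same library, the CD3- CD4+ cells had less KLRG1. They also had more CD127 in the main setting, but not in every alternative. The level of KLRG1 was lower in 8 of 8 untreated libraries, by a mean of 0.93 natural log units (difference -0.93 ± 0.44, SD over libraries; exact sign-flip permutation p = 0.00781, the smallest 8 libraries allow; adjusted p = 0.0391). CD127 was higher in 7 of 8 (0.25 ± 0.22; exact p = 0.0156, adjusted p = 0.0391), with the widest gaps at weeks 0 (0.61) and 1 (0.52), but centred on all 11 proteins its difference was -0.14. CD103 did not pass (0.38 ± 0.61; exact adjusted p = 0.247). Its difference was -0.25, -0.23 and -0.03 in weeks 0 to 2, 0.10 at week 3, and 0.72, 1.26, 0.27 and 1.23 in weeks 4 to 7. Ly-6C (-0.04 ± 0.09) and Ly-6G (0.02 ± 0.08) did not pass (exact adjusted p = 0.420 and 0.531). Of the 5 proteins 2 passed. With 1 library left out the differences of KLRG1 stayed between -0.84 and -1.01 and those of CD127 between 0.20 and 0.29. The count was then 2 without week 2 and 0 without any 1 of the others, with both at an exact adjusted p of 0.0781.

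Against the CD3+ CD4+ cells of the same library, differences were small for 4 proteins and wide but uneven for CD103. The 7 libraries of weeks 1 to 7 entered, since week 0 held 1 CD3+ cell, and the smallest exact p they allow is 0.0156. CD127 was higher on CD3- CD4+ cells in 6 of 7 libraries (0.23 ± 0.28; exact sign-flip permutation p = 0.0312, adjusted p = 0.0391). Over weeks 1 to 7 the gap was 0.78, 0.42, 0.25, 0.11, -0.01, 0.03 and 0.04. KLRG1 was lower in 6 of 7 (-0.16 ± 0.13; exact adjusted p = 0.0391), Ly-6C in 7 of 7 (-0.08 ± 0.06; exact adjusted p = 0.0391) and Ly-6G in 6 of 7 (-0.04 ± 0.04; exact adjusted p = 0.0391), but centred on all 11 proteins these 3 turned to 0.03, 0.09 and 0.14. CD103 was higher in 6 of 7 (0.52 ± 0.59) and did not pass (exact permutation p = 0.0781, adjusted p = 0.0781). Over weeks 1 to 7 its difference was -0.36, 0.10, 0.24, 1.07, 1.15, 0.36 and 1.12. Of the 5 proteins 4 passed. The mean over 9 proteins includes CD103, so higher CD103 lowers the ratios of the other proteins together, and the 5 tests are not independent. CD103 is also part of the 11-protein mean behind the CD3 limit. High CD103 can therefore move a cell near the CD3 threshold below it, and centring on 9 proteins afterwards does not undo that. The part of this in the CD103 difference was not tested. Median KLRG1 was also near the floor in both classes, at 0 counts at week 1 and 1 at week 2. With any 1 of the 7 libraries left out, 0 passed (the smallest exact p of 6 libraries is 0.0312). The differences of KLRG1 then lay between -0.12 and -0.19 and those of CD127 between 0.20 and 0.27, except 0.14 without week 1. With the CD3 threshold lowered by 0.5, 5 libraries were left, too few to pass. The differences were then -0.23 for KLRG1, 0.34 for CD127 and 0.12 for CD103. With every cell thinned to 150 counts, the CD103 difference was 0.14.

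**Figure D4:**
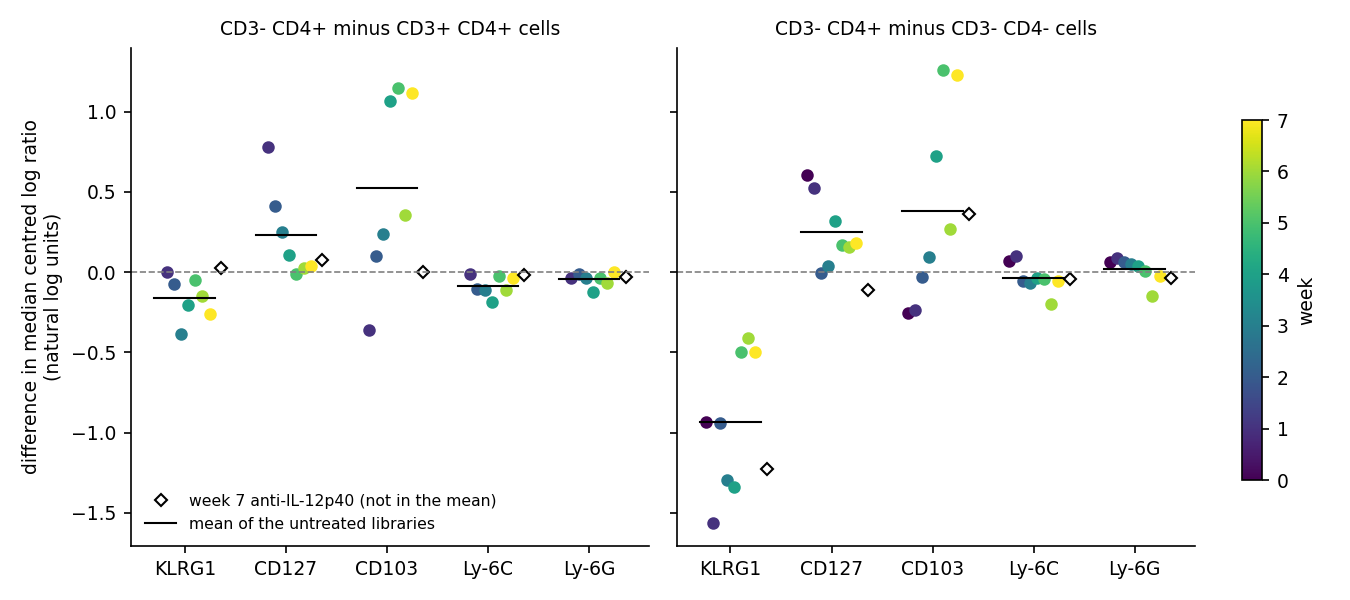
Difference in median centred log ratio (natural log units) between CD3- CD4+ cells and CD3+ CD4+ cells (left) or CD3- CD4- cells (right) of the same library; circles are untreated libraries coloured by week, lines their mean, diamonds the anti-IL-12p40 library. KLRG1 lies below 0 for all 8 untreated libraries on the right, and CD103 reaches 1.15 (left) and 1.26 (right) at week 5.

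Within a library, the far cells and the rest could be set side by side, as a description since both come from the same droplets. CD127 was positive on 96.8% of 463 far cells and 57 of the other 60 at week 0, and on 96.1% and 93.3% at week 1. KLRG1 was positive on 12.1% (9.27 to 15.4) of the far cells at week 0 and on 0 of the other 60 (exact interval up to 5.96%). The far cells of week 0 also had more counts in total, with a median of 2114 against 1045.5, and more CD90.2 (1630 against 560) and CD4 (307 against 200). At week 2 the far cells had more CD127 and less KLRG1 than the rest. Of 125 far cells, 79.2% (71.0 to 85.9) were CD127+, 16.8% (10.7 to 24.5) KLRG1+ and 1.60% (0.194 to 5.66) CD103+. Of the other 228, 44.7% (38.2 to 51.4) were CD127+, 40.4% (33.9 to 47.0) KLRG1+ and 12.3% (8.32 to 17.3) CD103+. Far cells at week 2 also had more CD4 and CD90.2, with medians of 118 and 556 counts against 70 and 321, and more counts in total (958 against 635.5). At week 4, CD103 was positive on 0 of 13 far cells (exact interval up to 24.7%) and on 47.3% of 165 others. At week 5 it was positive on 10 of 36 far cells (27.8%) and on 57.3% of 429 others. At week 6 the order was the other way, with 44.1% of 34 far cells (27.2 to 62.1) and 30.8% of 1661 others (28.6 to 33.0), and these intervals overlap. Far cells were few in these weeks, and they held 1, 0, 10 and 1 of the CD103+ cells at weeks 3, 4, 5 and 7.

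At week 7, the library of mice given anti-IL-12p40 held 290 CD3- CD4+ cells, 2.33% of kept cells (2.07 to 2.61), against 213 or 1.79% (1.56 to 2.04) in the untreated library. The ratio was 1.30, and with 1 library of each kind no test was made. The gap was widest in the far cells, which numbered 88 in the treated library (0.708% of kept cells, 0.568 to 0.871) and 7 in the untreated one (0.0588%, 0.0236 to 0.121). That is a ratio of 12.04, while with thresholds fitted in each library the ratio of all CD3- CD4+ cells was 0.942. Median CD3 was 5 counts in the treated and 14 in the untreated library, and 30.0% against 63.4% of the cells lay within 0.25 of the threshold. CD90.2 was 1069.5 counts against 570, and CD4 was 176 counts against 256. The CD3- CD4- cells were also more numerous in the treated library, 1860 against 99, so CD4 was carried by 13.5% of the CD3- cells of the gate there.

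The 3 proteins without a limit in the choice also had other values in the treated library. KLRG1 was positive on 23.8% of the cells (19.0 to 29.1) against 9.86% (6.21 to 14.7), and CD103 on 37.6% (32.0 to 43.4) against 54.5% (47.5 to 61.3). CD127 was positive on 72.8% (67.2 to 77.8) against 88.3% (83.2 to 92.3). Cells with both KLRG1 and CD103 were 14.8% (10.9 to 19.4) of the treated library's CD3- CD4+ cells and at most 3.70% in any untreated library, at week 3. In CD3+ CD4+ cells they were 7.81% in the treated library and 0.926% at untreated week 7. In CD3- CD4- cells they were 16.1% in the treated library and 8.08% to 23.9% in the untreated ones. At most 8 of these 43 cells can be far cells, since 8 of the 88 far cells (9.09%) were KLRG1+, against 30.2% of the other 202. CD103 was positive on 20.5% of the far cells and 45.0% of the others. Of the far cells, 87.5% (78.7 to 93.6) were CD127+, against 66.3% (59.4 to 72.8) of the others and 96.8% of the far cells of week 0. The CD3+ CD4+ cells of the treated library had 20.9% KLRG1+ and 31.9% CD103+, against 12.2% and 24.4% at untreated week 7.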

How the data were processed

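The authors deposited raw counts, whole numbers for each barcode and antibody. Per the submitters' processing notes, Cell Ranger 6.0.2, Seurat 4.1.1 and the build mm10 belong to the processing, with no role named. How barcodes were chosen is not given in these sources. The other 55 of 64 samples were not analysed here. Of 131917 barcodes, 130442 were kept, after dropping those under 50 counts and, in each library, the 1% with the highest total. Trends used exact permutations over all 40320 orderings of 8 libraries, and differences within libraries an exact sign-flip permutation test, for libraries with at least 50 cells of each class, all two-sided, with Benjamini-Hochberg adjustment over 5 proteins at 0.05. Mixture thresholds were fitted on 2000 cells per library. Shares carry exact Clopper-Pearson 95% intervals for counting error only. All 11 proteins are named, by rule. The cells and the lists were chosen with earlier results of these data known. The steps were tested on simulated data modelled on the week 1 classes, where CD3 had separate peaks. The simulation therefore did not cover the later weeks, where the CD3 limit cut the edge of 1 distribution. Alternatives were other thresholds, filters, thinning to 150 counts, centring, summaries and left-out libraries. Python 3.11.15, numpy 2.4.6, scipy 1.17.1, scikit-learn 1.9.0 and matplotlib 3.10.9 were used.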

Additional observations from a re-analysis of the deposited data

How the results depend on the processing

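The week 0 share of 3.13% was 2.77% with the CD3 threshold lowered by 1 and 2.13% with thresholds fitted in each library, where the CD3 threshold of week 0 fell inside the CD3- peak. The treated over untreated ratio at week 7 (1.30) was 4.95 and 12.04 with the CD3 threshold lowered by 0.5 and 1, and 0.942 with thresholds fitted in each library. The count of proteins with a trend (0 of 5) was 1 with the CD3 threshold lowered by 0.5, with means over cells and with positive shares. It was 2 by Pearson correlation and 2 as the difference from CD3- CD4- cells, an alternative chosen after seeing the data. The count against CD3+ CD4+ cells (4) was 0 with positive shares, 1 with thresholds fitted in each library, and 2 centred on all 11 proteins. It was also 0 with the CD3 threshold lowered by 0.5 or 1, but 5 and 3 libraries cannot pass (smallest exact p 0.0625 and 0.25). Leaving out a library gave 0 to 4, where the 4 is week 0, which never entered, and each of the 7 that did gave 0. The count against CD3- CD4- cells (2) was 0 with the CD3 threshold lowered by 1 (3 libraries, too few to pass). It was 0 with it lowered by 0.5 and with at least 100 cells, where the KLRG1 difference was -1.24 and -0.997 over 6 and 7 libraries (exact adjusted p = 0.0781 for both). It was 1 with means over cells, with positive shares or with the treated library added. Leaving out each library gave 0 to 2. With the CD3 threshold lowered by 1 only 3 libraries held 50 cells, and no trend could be computed. The other 52 values of these 5 results moved at most 1.5 times or within the counting interval. A similar count did not always mean the same proteins. Against CD3- CD4- cells thinned to 150 counts, KLRG1 (-0.45) and Ly-6C (-0.26) passed (exact sign-flip permutation, adjusted p = 0.0195 for both). CD127 did not pass there (0.12, exact adjusted p = 0.0684). Centred on all 11 proteins, KLRG1, Ly-6C and Ly-6G passed and CD127 did not. Of 72 shares of the 8 other libraries, 34 moved beyond their intervals. At week 7 the share of 1.79% was 0.252% with the CD3 threshold lowered by 0.5 and 9.90% after thinning.

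These single proteins changed direction. The trend of Ly-6C became 0.20 with the CD3 threshold lowered by 0.5, 0.048 when thinned, and ranged from -0.50 to 0.25 with each library left out. As the difference from CD3- CD4- cells, the trend of KLRG1 became 0.60 and that of Ly-6G -0.95. Against CD3+ CD4+ cells, CD103 became -0.22 with the CD3 threshold lowered by 1. Centred on all 11 proteins, KLRG1, Ly-6C and Ly-6G became 0.028, 0.094 and 0.14, and as positive shares Ly-6C and Ly-6G became 1.86 and 0.226 percentage points. Against CD3- CD4- cells, Ly-6C became 0.024 and 0.17 with the CD3 threshold lowered by 0.5 and 1, and 0.046 centred on the 5 proteins, and CD103 became -0.32 with it lowered by 1. Centred on all 11 proteins, CD127 and Ly-6G became -0.14 and -0.36, and as a positive share CD127 became -4.06 percentage points. The causes were not tested. No paired analysis was possible because each week is 1 library with no replicate number to pair across weeks; the classes were compared within libraries. Counts of 7 to 36 far cells at weeks 3 to 7 limit what can be said of them.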

Other observations

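Cells that failed only 1 limit of the choice show which proteins bounded the CD3- CD4+ cells. CD90.2 bounded them most at week 5, where 411 cells failed it alone beside 465 that passed all limits, and least at week 6, where 23 did so beside 1695. CD11b, a myeloid integrin, alone kept out 21 (week 1) to 195 (week 6) cells of an untreated library. CD11c, the integrin of dendritic cells, alone kept out 12 (weeks 3 and 7) to 113 (week 2). CD64, the high-affinity IgG receptor of macrophages, alone kept out 33 cells at week 0 and 0 to 14 at weeks 1 to 7. CD64+ cells also carried CD4 above its threshold in 30.1% of cases at week 0, where 51.3% of them were CD90.2+ and 17.8% KLRG1+ too, and droplets of more than 1 cell were not removed.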
